A study of Homo sapiens with 15 samples.

Results

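AMOT, its paralogs and the core of the Hippo pathway were followed through ribosome footprints of human HEK293 cells. The 10 genes were AMOT, AMOTL1, AMOTL2, LATS1, LATS2, YAP1, WWTR1, TEAD1, CTGF and CYR61, taken by name from a table of 55773 gene names. CTGF and CYR61 are older names of CCN2 and CCN1. AMOT was included because its footprints stood far above the control in both overexpressing lines, so its values in those lines are given here as a description with no test. All 10 genes had reads in each of the 15 libraries and passed the filter on low values (a normalized count of 10 or more in at least 3 libraries of the comparison). The lowest read count of any of them in any library was 59, for CTGF.

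HEK293 is a human embryonic kidney cell line, and ribosome profiling sequences the short stretches of mRNA that ribosomes protect from nuclease. In all, 5 groups of 3 libraries were measured, in 2 sets. In the first set, Flp-In T-REx 293 cells carried a Flag/HA control, Flag/HA-ZC3H7A (ZC3H7A-OE) or Flag/HA-ZC3H7B (ZC3H7B-OE), and 1 µg/mL doxycycline switched the constructs on for 24 h. ZC3H7A and ZC3H7B are paralogous zinc finger RNA-binding proteins. The second set compared a Parental group, titled wild type with a control shRNA, with the ZC3H7A/B-DD group, a double depletion by ZC3H7A knockout plus an shRNA to ZC3H7B. Both of these groups had been kept in 5 µg/mL puromycin until 2 passages before they were collected. Flag/HA cells were lysed in a hypotonic buffer and made into libraries with a small RNA kit. Frozen pellets of the other set were lysed in a polysome lysis solution that held 100 µg/mL cycloheximide, and their libraries were made by EIRNA Bio. The 2 sets were therefore tested apart. Each construct sat in its own line, so a difference between lines and a response to the expressed protein cannot be told apart. Footprints also do not separate the amount of an mRNA from how well each copy is translated.

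Hippo is a growth-restraining kinase pathway. LATS1 and LATS2 phosphorylate the transcriptional coactivators YAP1 and WWTR1 (also called TAZ), which keeps them out of the nucleus. When unphosphorylated, YAP1 and TAZ enter the nucleus, bind TEAD factors such as TEAD1 and switch on targets that include CTGF and CYR61, a pair of secreted matricellular proteins. The angiomotins AMOT, AMOTL1 and AMOTL2 are scaffolds at tight junctions and on actin that bind YAP1 and TAZ, hold them in the cytoplasm and promote their phosphorylation by LATS kinases. LATS2 and AMOTL2 are themselves known as YAP target genes, which gives the pathway a feedback arm.

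Recovered totals ran from 22661812 to 29515572 reads per Flag/HA library and from 20777204 to 42680589 in the second set. ZC3H7A footprints were 5.81-fold and ZC3H7B footprints 13.0-fold those of the Flag/HA control in the matching overexpressing line. Libraries labelled ZC3H7A/B-DD did not show less of either targeted gene, so that name stands here for the label only. ZC3H7A read 7116, 1890.3 and 5066 normalized counts there against 1885, 1819.9 and 2311 in Parental, and ZC3H7B 3948, 2399 and 2969 against 2479, 2321 and 2609. Footprints on a gene after an editing event or a hairpin do not show whether functional protein is made. Parental replicate 3 stood apart. Its counts differed from those of Parental replicates 1 and 2 by a chi-square per degree of freedom of 104.3 and 76.7, against 10.2 between those replicates. Pairs of ZC3H7A/B-DD libraries also differed, by 21.53 to 29.95, while pairs within a Flag/HA group gave 1.68 to 6.59. All 8 HEK293 markers were present in every library. The summed level of 9 fibroblast markers was 649.9 to 817 normalized counts in Parental and 437 to 543 in ZC3H7A/B-DD, and 173 to 310.2 in the Flag/HA groups. That of 8 blood cell markers was 611 to 804 in the Flag/HA control, 257 to 332 in ZC3H7A-OE and 342 to 449 in ZC3H7B-OE, and 168 to 216 in Parental against 311 to 367 in ZC3H7A/B-DD. The 8 HEK293 markers summed to 27878 to 35383 in the Flag/HA groups, 33120 to 39912 in Parental and 51245 to 56194 in ZC3H7A/B-DD. Marker sums thus moved with the groups, but the HEK293 markers did not move as a set in ZC3H7A/B-DD. Of 5 fibroblast markers tested in ZC3H7A/B-DD against Parental, 3 were called lower and 0 higher (13.5% and 11.0% of all genes). The median log2 change of these 5 was -0.85. Only 1 of the 8 blood cell markers had a mean of 10 or more in the Flag/HA control. Of the 8 HEK293 markers, 1 was called higher and 1 lower in ZC3H7A/B-DD (11.0% and 13.5% of all genes). Their median log2 change there was -0.03. The part of the markers in the results was not tested.

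AMOT, the founding angiomotin, gave the widest range of the 10 genes. Its normalized counts were 663, 774 and 688 in the Flag/HA control, 16178, 15917 and 15142 in ZC3H7A-OE, and 4054, 3844 and 3828 in ZC3H7B-OE. The groups lay far from each other, with every ZC3H7A-OE library above every ZC3H7B-OE library and each of those above every control library. Mean levels were 708 ± 58.2 (SD, n = 3) in the control, 15745 ± 539 in ZC3H7A-OE and 3909 ± 126 in ZC3H7B-OE. These are 22.2-fold and 5.52-fold the control, or 4.48 and 2.47 on the log2 scale. By log2 change AMOT ranked 19 from the top of 15599 genes in the ZC3H7A line and 45 in the ZC3H7B line. The level in ZC3H7A-OE was 4.03-fold that in ZC3H7B-OE, a log2 difference of 2.01. Both comparisons use the same 3 control libraries.

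AMOT was also the most abundant angiomotin of the Parental and ZC3H7A/B-DD libraries. Its level was 3977, 5570.1 and 9344 normalized counts in Parental and 9139, 10899 and 8416 in the libraries labelled ZC3H7A/B-DD. The groups overlapped, since Parental replicate 3 lay above 2 of the 3 ZC3H7A/B-DD libraries. The mean was 6297 ± 2757 against 9485 ± 1277 (SD, n = 3 each), a log2 change of 0.67 (95% interval 0.09 to 1.26) with an adjusted p of 0.0894 by limma, so AMOT was not called. Without Parental replicate 3 the log2 change was 1.00 with an adjusted p of 0.000982. Ordered by mean, AMOT footprints were highest in ZC3H7A-OE, then ZC3H7A/B-DD, Parental, ZC3H7B-OE and the Flag/HA control. ZC3H7A/B-DD and Parental overlapped in this order, and so did Parental and ZC3H7B-OE, whose highest library lay above the lowest Parental library. Levels across the 2 sets carry the differences in line, lysis and library preparation named above, and these cannot be told apart.

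**Figure D1:**
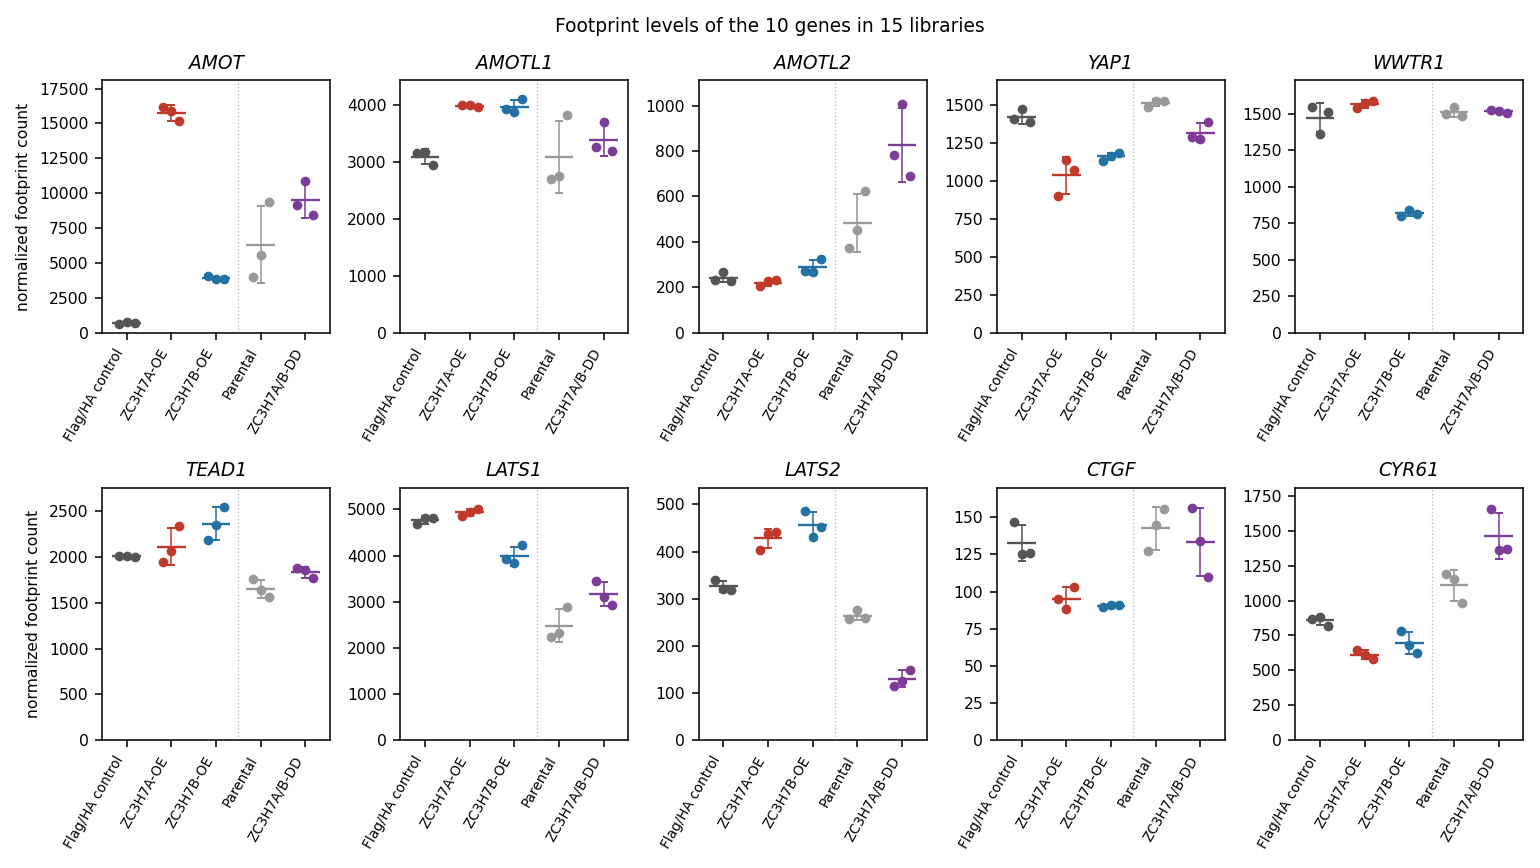
Normalized footprint count (vertical axis, from 0) of each of the 10 genes in each library, by group, with points for libraries and bars for the group mean ± SD (n = 3); a dotted line parts the 2 library sets. AMOT lies at 663 to 774 in the Flag/HA control and at 15142 to 16178 in ZC3H7A-OE, WWTR1 stands apart in ZC3H7B-OE and LATS2 in ZC3H7A/B-DD.

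AMOTL1, the angiomotin with the most footprints in the Flag/HA control, rose in both overexpressing lines. It read 3159.6, 3185 and 2948 normalized counts in the control, 4001, 4008 and 3969 in ZC3H7A-OE, and 3934, 3890.0 and 4109.8 in ZC3H7B-OE. No library of either overexpressing line overlapped the control. The log2 change was 0.37 ± 0.05 (SE; limma adjusted p = 2.87e-07) in ZC3H7A-OE and 0.36 ± 0.05 (adjusted p = 4.17e-07) in ZC3H7B-OE. Between the lines the difference was 0.01 (95% interval -0.09 to 0.10). For Parental and ZC3H7A/B-DD, AMOTL1 read 2703, 2767 and 3827 in Parental and 3268, 3718 and 3192 in ZC3H7A/B-DD, and the groups overlapped through Parental replicate 3. Its log2 change of 0.15 had an adjusted p of 0.473, and without that library it was 0.31 with an adjusted p of 0.0232.

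AMOTL2, the third angiomotin and a known YAP target, had the fewest footprints of the family. Its libraries in the Flag/HA set ran from 205 to 327 normalized counts, and those of ZC3H7A-OE and of ZC3H7B-OE both overlapped the control. Log2 changes against the control were -0.14 (95% interval -0.37 to 0.10, adjusted p = 0.313) and 0.24 (0.00 to 0.47, adjusted p = 0.0822). Between the lines AMOTL2 was lower in ZC3H7A-OE by a log2 change of -0.38 (adjusted p = 0.0115). That call was lost without ZC3H7A-OE replicate 1 (adjusted p = 0.0542) or without ZC3H7B-OE replicate 3 (0.0741).

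AMOTL2 rose in the group labelled ZC3H7A/B-DD. It read 374, 452 and 626 normalized counts in Parental and 783, 1008 and 689 in ZC3H7A/B-DD. All 3 ZC3H7A/B-DD libraries lay above all 3 Parental libraries. The log2 change was 0.79 ± 0.20 (SE; limma adjusted p = 0.0201). It was lost as a call without Parental replicate 1 (adjusted p = 0.0553) or 2 (0.0705) and without ZC3H7A/B-DD replicate 1 (0.0518) or 2 (0.0693), at log2 changes of 0.62 to 0.82.

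Per kilobase of the longest coding sequence, AMOT was a minor angiomotin in the Flag/HA control and the major one in ZC3H7A-OE. In ZC3H7B-OE it was second to AMOTL1, though their counts before division by length overlapped (3828 to 4054 against 3890.0 to 4109.8). Shorter coding forms were not considered. AMOT made up 15.6% ± 0.92 (SD, n = 3) of the 3 genes' footprints per kilobase in the control, 76.6% ± 0.60 in ZC3H7A-OE and 44.5% ± 1.40 in ZC3H7B-OE. The family total was 1395 ± 61.9 normalized counts per kilobase in the control, 6322 ± 168 in ZC3H7A-OE and 2704 ± 51.8 in ZC3H7B-OE. AMOTL1 held 77.5% ± 1.24 of the control's family footprints, 22.0% ± 0.49 of those in ZC3H7A-OE and 51.3% ± 0.99 in ZC3H7B-OE. AMOTL2 stayed at or below 7.30% in every Flag/HA library. These shares follow from the AMOT values that chose it and carry no test. AMOT held 59.1% ± 5.86 of the family in Parental and 65.8% ± 0.65 in ZC3H7A/B-DD. The family total there was 3210 ± 1114 and 4429 ± 556 per kilobase.

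**Figure D2:**
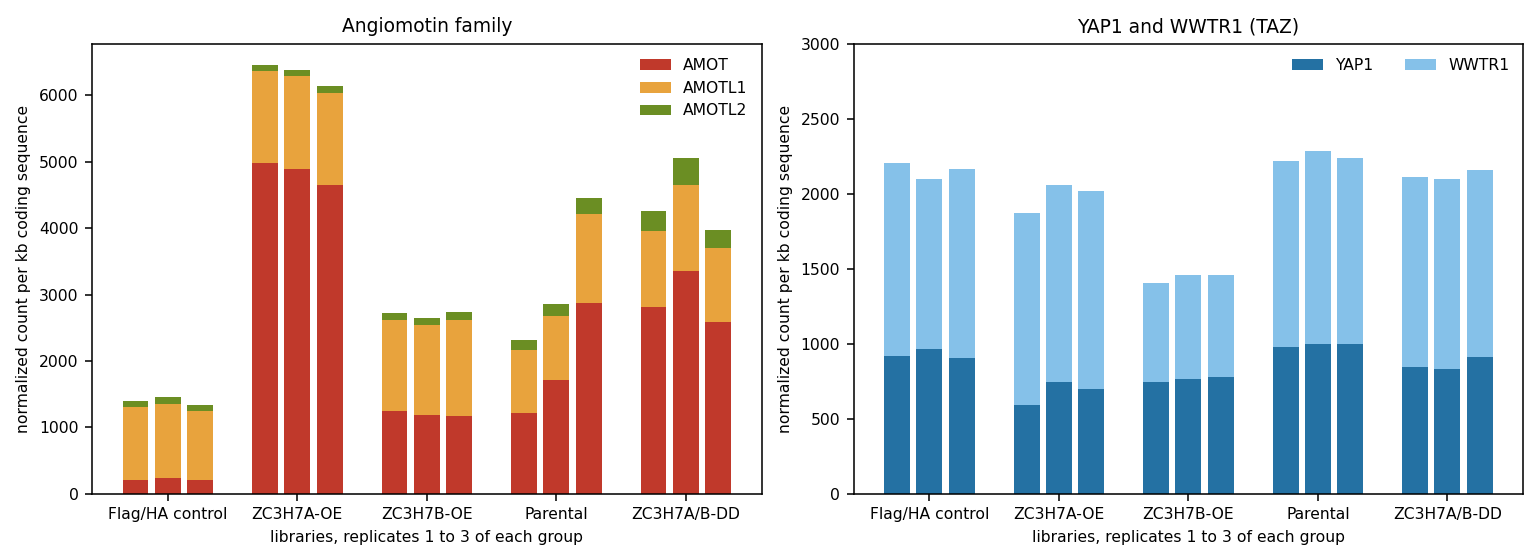
Stacked bars give normalized counts per kilobase of coding sequence in each library (replicates 1 to 3 of each group, left to right) for the angiomotins (left) and for YAP1 and WWTR1 (right). AMOT fills 15.6% of the control's angiomotin bars and 76.6% of those of ZC3H7A-OE, and the WWTR1 part is smallest in ZC3H7B-OE.

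LATS1 and LATS2, the kinases that phosphorylate YAP1 and TAZ, moved apart. LATS1 was much the more abundant, with 93.4% ± 0.33 of LATS footprints per kilobase in the Flag/HA control, and the libraries read 4677, 4806 and 4822 normalized counts there. ZC3H7A-OE gave 4862, 4942 and 5015 and ZC3H7B-OE 3919.8, 3828 and 4221. ZC3H7A-OE lay just above the control in all 3 libraries and ZC3H7B-OE below it in all 3. LATS1 fell in ZC3H7B-OE, with a log2 change of -0.26 ± 0.05 (SE; adjusted p = 3.72e-05). The 0.05 in ZC3H7A-OE was not called (adjusted p = 0.350). Quantile scaling of the libraries gave 0.15 there, with an adjusted p of 0.00959. Between the lines LATS1 was higher in ZC3H7A-OE by 0.31 (adjusted p = 6.68e-06).

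LATS2 rose in both overexpressing lines and fell in the libraries labelled ZC3H7A/B-DD. It read 341, 321 and 319 normalized counts in the control, 404, 437 and 442 in ZC3H7A-OE, and 487, 431 and 452 in ZC3H7B-OE. Neither overexpressing line overlapped the control. Log2 changes were 0.39 ± 0.09 (SE; limma adjusted p = 0.000513) and 0.48 ± 0.09 (adjusted p = 5.48e-05). The 2 lines differed by -0.09 (95% interval -0.27 to 0.09). Against this, LATS2 read 257, 275 and 260.1 in Parental and 116, 126 and 149.9 in ZC3H7A/B-DD. Those groups lay well apart, and the ratio of means was 0.495. The log2 change of -1.02 ± 0.14 (adjusted p = 0.00123) was the most negative of the 10 genes in any comparison.

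LATS1 went the other way in the second set without passing the test. Its libraries read 2236, 2313 and 2893 in Parental and 3446, 3106 and 2939 in ZC3H7A/B-DD, with no overlap. The log2 change was 0.36 (95% interval 0.10 to 0.62, adjusted p = 0.0508), and 0.47 with an adjusted p of 0.00299 without Parental replicate 3. The LATS1 share of LATS footprints per kilobase was 89.9% ± 1.33 in Parental and 95.9% ± 0.83 in ZC3H7A/B-DD.

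YAP1, the coactivator that gives the pathway its output, fell in both overexpressing lines. Its normalized counts were 1403, 1470.3 and 1384 in the control, 901, 1137 and 1068 in ZC3H7A-OE, and 1133, 1162 and 1184 in ZC3H7B-OE. Every overexpressing library lay below every control library. Log2 changes were -0.46 ± 0.07 (SE; limma adjusted p = 4.6e-06) and -0.29 ± 0.07 (adjusted p = 0.00104). The lines themselves differed by -0.17 (95% interval -0.31 to -0.03), with an adjusted p of 0.0594. Without ZC3H7A-OE replicate 2 this difference was -0.24 with an adjusted p of 0.0101. Parental and ZC3H7A/B-DD levels of YAP1 were 1487, 1525 and 1526, and 1288, 1271 and 1387. All ZC3H7A/B-DD libraries were lower, but the log2 change of -0.20 (95% interval -0.38 to -0.02) did not pass, at an adjusted p of 0.0966.

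WWTR1, the YAP1 paralog TAZ, differed most between the overexpressing lines among the 9 tested genes. It read 1547, 1359 and 1511 normalized counts in the control and 1536, 1575 and 1583 in ZC3H7A-OE, which overlapped. ZC3H7B-OE gave 797, 837 and 816, far below both. WWTR1 fell in ZC3H7B-OE to a ratio of means of 0.555, a log2 change of -0.85 ± 0.06 (SE; adjusted p = 2.54e-11). In ZC3H7A-OE the log2 change was 0.09 (95% interval -0.03 to 0.21, adjusted p = 0.201). The difference between the lines was 0.94 ± 0.06 (adjusted p = 9.79e-12). Parental libraries read 1496, 1543 and 1486 and ZC3H7A/B-DD libraries 1521, 1519 and 1503, a log2 change of 0.01 (95% interval -0.17 to 0.18, adjusted p = 0.964). Its sign changed with the scaling.

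YAP1 and WWTR1 did not keep their proportion. YAP1 made up 43.2% ± 2.44 (SD, n = 3) of the pair's footprints per kilobase in the Flag/HA control, 34.2% ± 2.37 in ZC3H7A-OE and 52.8% ± 0.56 in ZC3H7B-OE. The ranges of the 3 groups did not overlap. The pair's summed level per kilobase was 2158 ± 56.7, 1983 ± 99.0 and 1441 ± 29.4. In Parental and ZC3H7A/B-DD the YAP1 share was 44.1% ± 0.51 and 40.6% ± 1.29. WWTR1 overlaps the antisense gene WWTR1-AS1, which reached at most 4.73 normalized counts in any library. Coding exons of YAP1, LATS1 and CTGF also overlap annotated antisense genes whose reads were not analysed here. Whether counting used strand is not given in the sources used here. Exons of AMOTL2, outside its coding sequence, overlap the pseudogene RPL39P5 on the same strand. RPL39P5 reached at most 121 normalized counts in any library, and its part in the AMOTL2 counts was not tested.

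TEAD1, a DNA-binding partner of YAP1 and TAZ, rose modestly in ZC3H7B-OE. It read 2009, 2009.8 and 2003 normalized counts in the control, 1940.2, 2065 and 2332 in ZC3H7A-OE, and 2186, 2351 and 2549 in ZC3H7B-OE. The ZC3H7B-OE libraries lay above all control libraries, while those of ZC3H7A-OE spread to both sides. Log2 changes were 0.23 ± 0.06 (SE; adjusted p = 0.00294) in ZC3H7B-OE and 0.07 (95% interval -0.06 to 0.20, adjusted p = 0.354) in ZC3H7A-OE. The latter was -0.004 without ZC3H7A-OE replicate 3. Between the lines TEAD1 was called lower in ZC3H7A-OE (-0.16, adjusted p = 0.0436), although the libraries overlapped. The call was lost without ZC3H7A-OE replicate 1 (adjusted p = 0.253) or 2 (0.112) and without ZC3H7B-OE replicate 2 (0.0873) or 3 (0.203), and with edgeR (0.0849) or DESeq2 (0.0840). TEAD1 read 1564 to 1756 in Parental and 1766 to 1876 in ZC3H7A/B-DD, a log2 change of 0.15 (95% interval -0.04 to 0.34, adjusted p = 0.220).

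CTGF is the textbook YAP and TEAD target, and its promoter is known for repeated TEAD recognition words. RefSeq promoter windows of 300 bases (250 before and 50 after the annotated start, GRCh38.p14) were at hand for 8 of the 10 genes, all but CYR61 and TEAD1. They were searched on both strands for GGAATG, which reads CATTCC on the other strand. The word occurred in 14.0% of 35116 windows, and 45 of them (0.128%) held 3 or more matches, CTGF among them. The YAP1 window and 1 of 2 AMOTL2 windows held 1 match before the start, and that of LATS2 held 1 after it. The windows of AMOT, AMOTL1, WWTR1 and LATS1 held none. Below are 200 bases of the windows of CTGF (chr6:131951374-131951573, minus strand) and of AMOT (chrX:112840832-112841031, minus strand), with matches in capitals. Each stretch ends at the last base before the start that lies in no annotated exon of the gene, and the CTGF matches start at its bases 33, 98 and 107. The pair sets the promoter of the best-known target beside that of the gene with the highest footprint change.
CTGF: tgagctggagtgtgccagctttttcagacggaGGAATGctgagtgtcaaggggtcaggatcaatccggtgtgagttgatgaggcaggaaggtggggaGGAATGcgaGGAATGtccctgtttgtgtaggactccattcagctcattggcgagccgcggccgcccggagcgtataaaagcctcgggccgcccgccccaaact
AMOT: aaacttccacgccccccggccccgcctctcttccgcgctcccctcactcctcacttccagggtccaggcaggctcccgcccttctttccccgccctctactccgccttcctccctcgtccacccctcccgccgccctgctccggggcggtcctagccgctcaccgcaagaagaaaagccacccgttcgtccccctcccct

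CTGF footprints fell in both overexpressing lines, at low counts. The libraries read 147, 126 and 126 normalized counts in the control, 95.1, 88.0 and 103 in ZC3H7A-OE, and 89.7, 91.2 and 90.9 in ZC3H7B-OE. All 6 overexpressing libraries lay below all 3 control libraries. Log2 changes were -0.47 ± 0.16 (SE; limma adjusted p = 0.0124) and -0.54 ± 0.16 (adjusted p = 0.00506). The former was lost as a call without Flag/HA control replicate 1, at -0.40 with an adjusted p of 0.0698. Between the lines the difference was 0.07 (95% interval -0.25 to 0.39, adjusted p = 0.773). CTGF read 127, 145 and 155 in Parental and 156, 134 and 110.0 in ZC3H7A/B-DD, and the groups overlapped. The log2 change of -0.10 (95% interval -0.49 to 0.28, adjusted p = 0.689) turned to 0.03 without ZC3H7A/B-DD replicate 3.

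CYR61, the other matricellular target, also fell in both overexpressing lines. It read 867, 884 and 821 normalized counts in the control, 648, 611 and 582 in ZC3H7A-OE, and 778, 684 and 625 in ZC3H7B-OE. No overexpressing library reached the lowest control library. Log2 changes were -0.48 ± 0.08 (SE; adjusted p = 1.22e-05) and -0.31 ± 0.08 (adjusted p = 0.00195). The lines differed by -0.18 (95% interval -0.34 to -0.02), with an adjusted p of 0.0811. Without ZC3H7B-OE replicate 3 that difference was -0.25 with an adjusted p of 0.0151.

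In the second set CYR61 went up, unlike CTGF. Parental libraries read 1187, 1156 and 984 and ZC3H7A/B-DD libraries 1652, 1364 and 1367, with no overlap. The log2 change was 0.40 ± 0.11 (SE; adjusted p = 0.0320). It was lost as a call without Parental replicate 2 (adjusted p = 0.0799), ZC3H7A/B-DD replicate 1 (0.0934) or ZC3H7A/B-DD replicate 3 (0.0595). Whether the changes of CTGF and CYR61 differ from each other was not tested.

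Counted together and leaving AMOT aside, 5 of 9 genes passed the test in ZC3H7A-OE, where 57.5% of 15599 genes did. AMOTL1 and LATS2 were higher (29.2% of all genes were) and YAP1, CTGF and CYR61 lower (28.2%). In ZC3H7B-OE 8 of 9 passed, against 54.3% of all genes. AMOTL1, TEAD1 and LATS2 were higher there (28.9% of all genes) and YAP1, WWTR1, LATS1, CTGF and CYR61 lower (25.4%), and AMOTL2 did not pass. Between the lines 4 of 9 passed, against 36.6% of all genes. WWTR1 and LATS1 were higher in ZC3H7A-OE (18.4%), and AMOTL2 and TEAD1 lower (18.2%). That count was 2 without ZC3H7A-OE replicate 1. Libraries of the compared groups did not overlap for 6, 8 and 3 of these 9 genes, against 63.9%, 61.1% and 43.7% of all genes. No test of the set was made.

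Among all 10 genes, 3 passed in ZC3H7A/B-DD against Parental, where 24.5% of 17092 genes did. AMOTL2 and CYR61 were higher (11.0% of all genes) and LATS2 lower (13.5%). For 6 of the 10 the libraries did not overlap, as for 40.8% of all genes. The count of calls was 6 (5 higher, 1 lower) without Parental replicate 3, and 1 without Parental replicate 2 or without ZC3H7A/B-DD replicate 1. The median log2 change over the 9 genes was 0.05 in ZC3H7A-OE and -0.26 in ZC3H7B-OE, beside 0.02 and 0.04 over all genes tested. Over the 10 genes it was 0.15 in ZC3H7A/B-DD, beside 0.02.

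**Figure D3:**
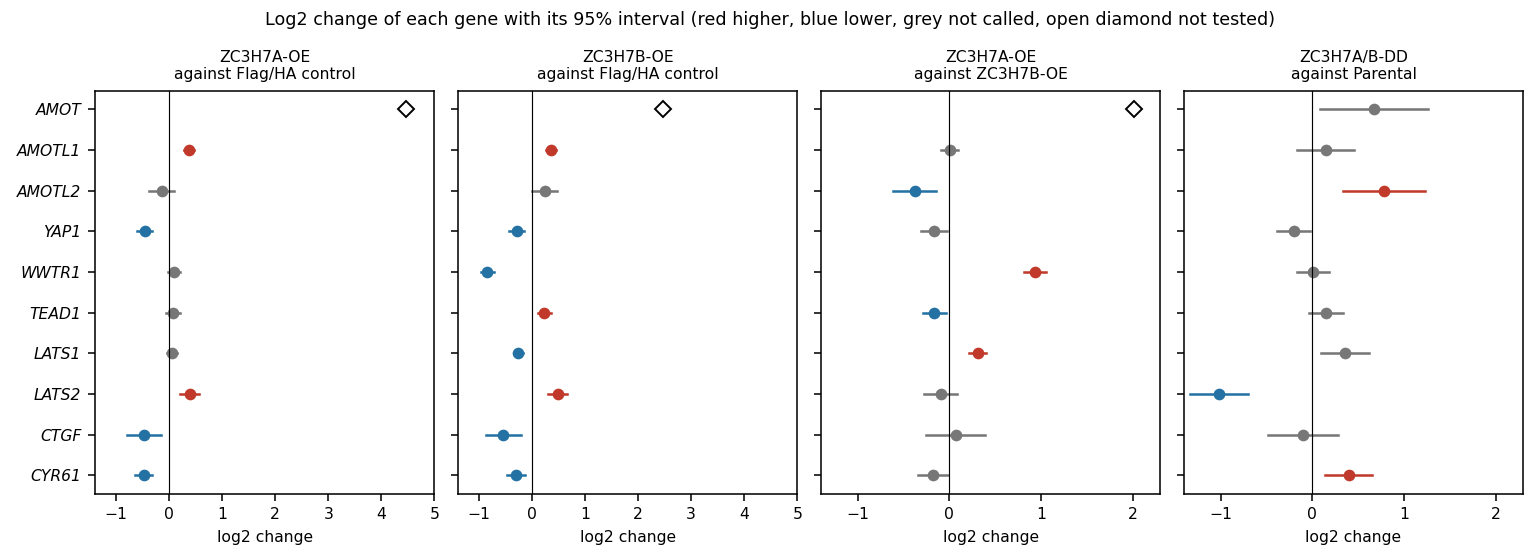
Log2 change of each gene (horizontal axis) in 4 comparisons, with 95% intervals from limma; red marks a gene called higher, blue lower and grey not called at an adjusted p of 0.05, and an open diamond marks AMOT where it was not tested. YAP1, CTGF and CYR61 lie left of 0 in both overexpressing lines, and in ZC3H7A/B-DD LATS2 lies at -1.02 and AMOTL2 at 0.79.

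The rest of the pathway was described by 5 lists of 81 other genes. In ZC3H7A-OE, 52 of the 75 tested genes passed (29 higher, 23 lower), in ZC3H7B-OE 48 of 75 (23 higher, 25 lower), between the lines 30 of 75 (21 higher in ZC3H7A-OE, 9 lower), and in ZC3H7A/B-DD 21 of 79 (8 higher, 13 lower). Of all genes tested, 57.5%, 54.3%, 36.6% and 24.5% passed in these comparisons. The list counts between the lines and in ZC3H7A/B-DD are near those shares. In ZC3H7A/B-DD the count was 35 without Parental replicate 3, 10 without Parental replicate 1 and 9 without Parental replicate 2. Medians over the lists together were 0.03, -0.04, 0.06 and 0.03 on the log2 scale. Calls over all genes were 29.2% higher and 28.2% lower in ZC3H7A-OE and 28.9% and 25.4% in ZC3H7B-OE. They were 18.4% and 18.2% between the lines, and 11.0% and 13.5% in ZC3H7A/B-DD.

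Upstream regulators and the kinase core moved in both directions. Of 36 tested, 17 were higher and 7 lower in ZC3H7A-OE, where 29.2% and 28.2% of all genes were. The rises with the smallest p were in LIMD1, a LATS-binding adaptor (log2 change 0.69, adjusted p = 7.56e-11, and 0.37 in ZC3H7B-OE), and the polarity scaffold SCRIB (0.68, adjusted p = 3.26e-10). The falls were in the giant cadherins FAT4 (-0.68) and FAT1 (-0.28, and -0.42 in ZC3H7B-OE). In ZC3H7B-OE 11 were higher and 10 lower, near the 28.9% and 25.4% of all genes. The upstream kinase STK4, also called MST1, rose by 0.60 (adjusted p = 6.05e-11) and the phosphatase scaffold subunit PPP2R1A by 0.45, while FAT4 fell (-0.79) and so did STK38L, a kinase of the LATS family (-0.75). In ZC3H7A-OE STK4 and PPP2R1A rose too (0.42 and 0.38) and STK38L fell (-0.21). Between the lines STRN (0.65) and SCRIB (0.68) were higher in ZC3H7A-OE and STK4 lower (-0.18), and TAOK2 was called lower (-0.13, adjusted p = 0.0454) but lost the call when any 1 of 5 of the 6 libraries was left out.

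In ZC3H7A/B-DD 4 of 37 upstream genes were higher and 8 lower, where 11.0% and 13.5% of all genes were. STK38 and STK38L, paralogous kinases of the LATS family, went opposite ways: STK38 read 1586 ± 132 (SD, n = 3) against 928 ± 152 in Parental (log2 change 0.78, adjusted p = 0.00265), and STK38L 652 ± 26.7 against 1329 ± 19.0 (-1.03, adjusted p = 7.67e-05). SCRIB rose (0.53). WWC2, a relative of the upstream scaffold KIBRA, fell from 1160.0 ± 43.4 to 521 ± 27.6 (-1.15, adjusted p = 5.99e-05).

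Of 5 tested TEAD factors and cofactors, 4 rose and 1 fell in ZC3H7A-OE, where 29.2% and 28.2% of all genes did. In ZC3H7B-OE 3 rose and 1 fell (28.9% and 25.4% of all genes), TEAD2 did not pass, and TEAD3 was called although its libraries overlapped the control. VGLL3, a vestigial-like TEAD cofactor, read 231 ± 18.9 in the control, 555 ± 60.7 in ZC3H7A-OE (log2 change 1.26, adjusted p = 1.21e-10) and 445 ± 11.3 in ZC3H7B-OE (0.95, adjusted p = 1.40e-08). TEAD4 rose by 0.35 and 0.27. VGLL4, which competes with YAP1 for TEAD, fell in both (-0.49 and -0.28). VGLL3 was higher and VGLL4 lower in ZC3H7A-OE than in ZC3H7B-OE (0.31 and -0.21), calls lost without ZC3H7A-OE replicate 3 (adjusted p = 0.0780) and without ZC3H7B-OE replicate 3 (0.0546). In ZC3H7A/B-DD TEAD4 (-0.43) and TEAD2 (-0.54) fell and none of the 6 tested rose (13.5% and 11.0% of all genes). Both were lost without Parental replicate 2 (adjusted p up to 0.0691), and TEAD2 also without Parental replicate 1.

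Other YAP and TAZ targets did not follow CTGF and CYR61 as a block. In ZC3H7A-OE 6 of 16 rose and 8 fell, beside 29.2% and 28.2% of all genes. In ZC3H7B-OE 5 rose and 5 fell, near the background of 28.9% and 25.4%. F3, the coagulation initiator tissue factor, read 466 ± 28.1 (SD, n = 3) in the control, 299 ± 15.8 in ZC3H7A-OE (log2 change -0.64) and 301 ± 9.13 in ZC3H7B-OE (-0.63). The growth factor TGFB2 fell in ZC3H7A-OE (-1.06, adjusted p = 5.50e-05) and ZC3H7B-OE (-0.62, adjusted p = 0.00953), and so did the transmembrane protein CRIM1 (-0.13, adjusted p = 0.0378, and -0.98, adjusted p = 3.71e-13). Against these, the transcription factor FOXF2 rose in both lines (0.82 and 0.66), as did PTPN14 (0.27 and 0.16) and FJX1 (0.60 and 0.69). Between the lines CRIM1 (0.84) and ARHGEF17 (0.35) were higher in ZC3H7A-OE and GADD45A (-0.36) and RBMS3 (-0.73) lower. ARHGEF17 lost its call without ZC3H7A-OE replicate 2 or ZC3H7B-OE replicate 2 (adjusted p up to 0.199).

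In ZC3H7A/B-DD 2 of 18 targets were higher and 3 lower, near the 11.0% and 13.5% of all genes. FJX1 fell from 795 ± 55.7 to 318 ± 34.1 (log2 change -1.32, adjusted p = 0.00011). The other calls were on genes with few footprints. MYOF was higher (74.7 ± 9.42 against 34.7 ± 13.6), as was ANKRD1 (15.6 ± 3.96 against 2.80 ± 2.43), and NT5E was lower (3.13 ± 1.55 against 12.5 ± 0.61). MYOF lost its call without Parental replicate 1 or 2 or ZC3H7A/B-DD replicate 1 (adjusted p up to 0.0695).

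Among angiomotin partners at tight junctions and polarity complexes, 1 of 10 rose and 3 fell in ZC3H7A-OE, where 29.2% and 28.2% of all genes did. In ZC3H7B-OE 2 rose and 5 fell (28.9% and 25.4%). MPDZ fell in both lines (-0.23 and -0.27). LIN7C fell in ZC3H7B-OE (-0.56, adjusted p = 7.53e-10) and had -0.06 in ZC3H7A-OE (adjusted p = 0.289). PARD3 rose in ZC3H7A-OE (0.19) and had 0.09 in ZC3H7B-OE (adjusted p = 0.0678), and MAGI1 rose in ZC3H7B-OE (0.20) and had 0.12 in ZC3H7A-OE (adjusted p = 0.0954). PLEKHG5 was called higher in ZC3H7B-OE (0.34, adjusted p = 0.0415), a call lost when any 1 of 5 of the 6 libraries was left out. LIN7C (0.50) and INADL (0.27) were higher in ZC3H7A-OE than in ZC3H7B-OE, ARHGAP17 (-0.24) and PLEKHG5 (-0.56) lower. In ZC3H7A/B-DD PARD3 alone of 10 passed, higher (0.48, adjusted p = 0.0467; 11.0% of all genes were higher), and it did so in no fit that left out a library other than Parental replicate 3.

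Enzymes that mark angiomotins for turnover split by gene. NEDD4, a ubiquitin ligase known to act on AMOT, read 3029.6 ± 134 normalized counts in the control, 1984 ± 74.4 in ZC3H7A-OE (log2 change -0.61, adjusted p = 5.00e-10) and 1518 ± 30.2 in ZC3H7B-OE (adjusted p = 1.12e-13). NEDD4L fell in both lines (-0.57 and -0.17). The related ligase ITCH rose in both lines (0.44 and 0.28), as did the tankyrase TNKS (0.26 and 0.34), while TNKS2 fell in both (-0.20 and -0.30). In all, 2 of 9 rose and 4 fell in ZC3H7A-OE (29.2% and 28.2% of all genes), and 3 rose and 4 fell in ZC3H7B-OE (28.9% and 25.4%). NEDD4 (0.38) and ITCH (0.16) were higher in ZC3H7A-OE than in ZC3H7B-OE, NEDD4L (-0.40) and WWP2 (-0.32) lower. In ZC3H7A/B-DD only NEDD4L of the 9 passed (0.43, adjusted p = 0.0447; 11.0% of all genes were higher), and the call held in no fit that left out a library other than Parental replicate 3.

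**Figure D4:**
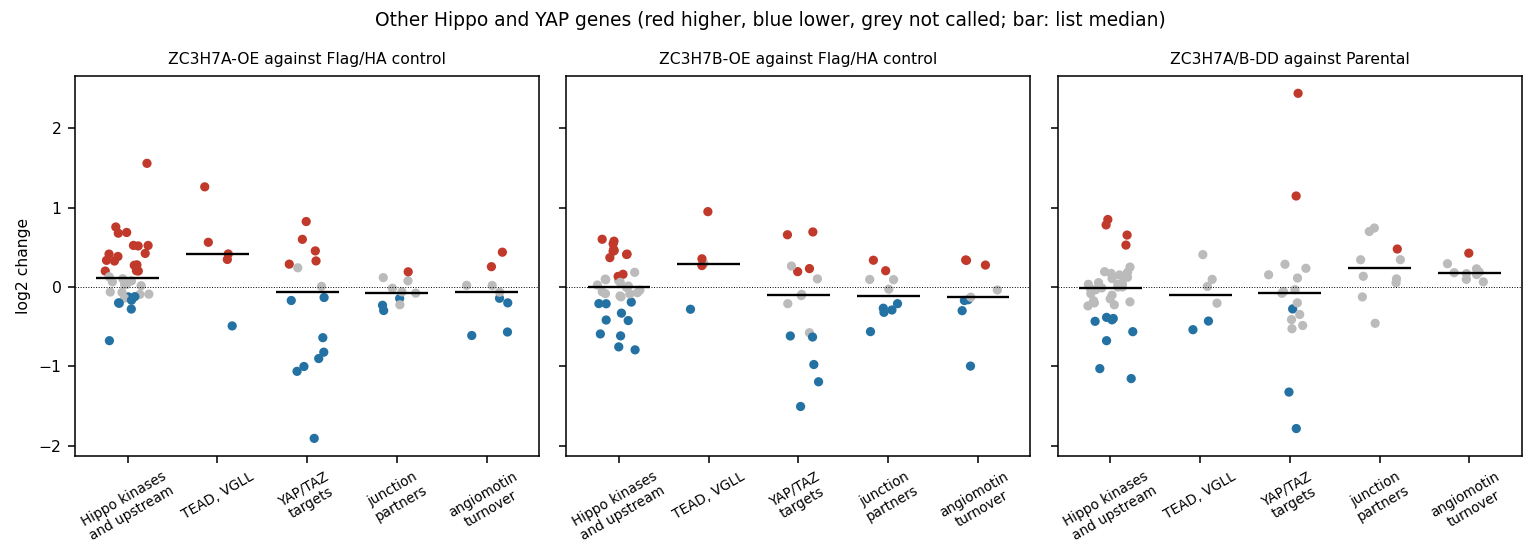
Log2 change (vertical axis) of each tested gene of the 5 lists in 3 comparisons; red points are called higher, blue lower and grey not called (limma adjusted p of 0.05), and black bars mark list medians. Red and blue points occur together in every list in the overexpressing lines, and the lowest target points there are ANKRD1 at -1.91 and -1.50.

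The title of the series names codon-dependent regulation, so the last bases of codons were read from the longest coding sequence of each gene in GENCODE 29. The share of codons ending in A or T had a median of 40.9% over the 12356 genes that had such a sequence and were tested in both sets. LATS1 stood near the top of these with 69.5%, above 98.3% of them, while its paralog LATS2 had 24.4%. AMOT had 47.7%, AMOTL1 35.2% and AMOTL2 28.5%. The values were 42.6% for YAP1, 32.6% for WWTR1, 47.3% for TEAD1, 19.3% for CTGF and 30.8% for CYR61. Stretches this short do not stand for the whole gene. AMOT had 60% and LATS1 56.7% over codons 2 to 31, against 47.7% and 69.5% over the coding sequence. Codons 2 to 31 of 3 genes are shown, with a last base of A or T in capitals: 18 of 30 codons in AMOT, 17 in LATS1 and 1 in CTGF.
AMOT: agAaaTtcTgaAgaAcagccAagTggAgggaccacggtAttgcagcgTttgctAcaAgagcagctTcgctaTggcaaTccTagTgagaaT
LATS1: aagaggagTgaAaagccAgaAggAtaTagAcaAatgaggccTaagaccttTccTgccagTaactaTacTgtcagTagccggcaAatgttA
CTGF: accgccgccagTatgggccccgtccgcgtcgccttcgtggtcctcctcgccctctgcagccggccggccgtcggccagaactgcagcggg

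Bin medians of the log2 change fell as this share went up in the overexpressing lines, and were highest in the last bin in ZC3H7A/B-DD. The bins held the tested genes with a codon value, 12870 of 15599 in the Flag/HA set and 13037 of 17092 in the other. With these genes split into 4 equal bins from the lowest to the highest share, the medians were 0.20, 0.06, -0.03 and -0.14 in ZC3H7A-OE and 0.18, 0.10, -0.01 and -0.15 in ZC3H7B-OE. In ZC3H7A/B-DD they were -0.04, -0.04, -0.001 and 0.08. Genes are not independent replicates, and length, base composition and expression go along with codon use. In ZC3H7B-OE LATS1 and LATS2 had the same sign as the median of their bins (-0.26 and 0.48). In ZC3H7A/B-DD they did too (0.36, not called, and -1.02). In ZC3H7A-OE LATS2 (0.39) did and LATS1 (0.05) did not. The other genes called in ZC3H7A/B-DD, AMOTL2 (0.79) and CYR61 (0.40), lay in the second bin, whose median was -0.04. In ZC3H7B-OE WWTR1 (-0.85) and CYR61 (-0.31) had the opposite sign to their bin, and AMOTL1 (0.36) had the same sign. YAP1 (-0.29) and TEAD1 (0.23) lay in the third bin, whose median there of -0.01 is too near 0 to compare signs. AMOT lay in the third bin, whose median was -0.03, and its log2 change in ZC3H7A-OE was 4.48. CTGF, with the lowest share of the 10 genes, lay in the bin with the lowest shares, whose medians of 0.20 and 0.18 have the opposite sign to its changes of -0.47 and -0.54.

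**Figure D5:**
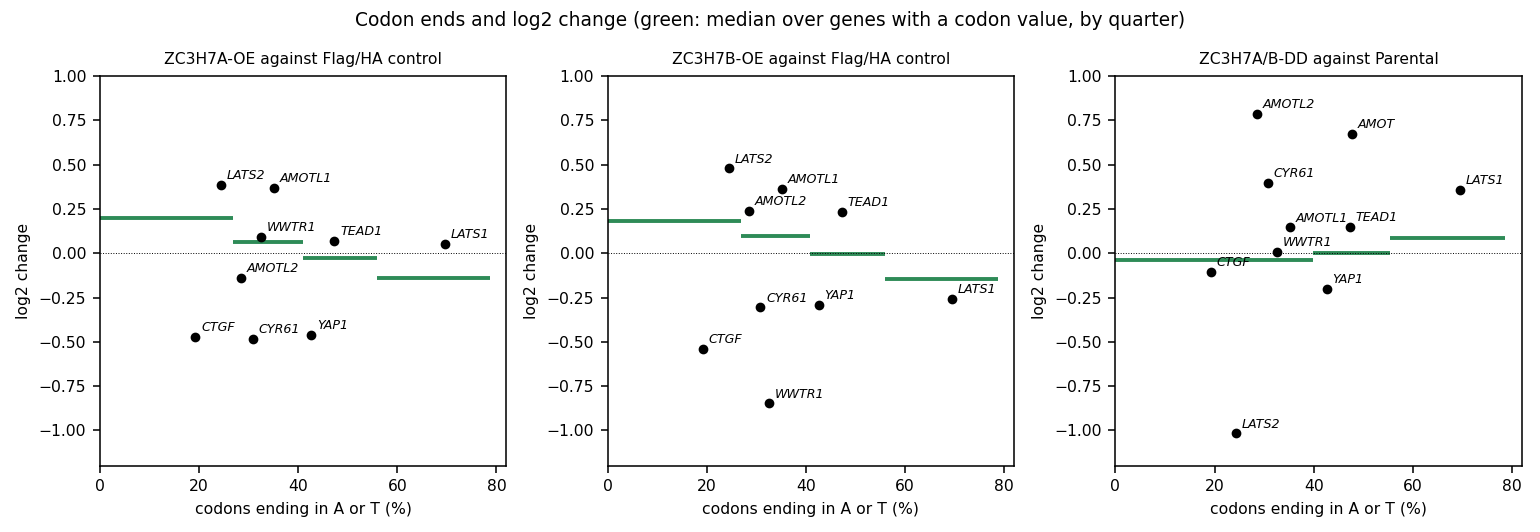
Log2 change (vertical axis) against the share of codons ending in A or T (horizontal axis, percent) for the 10 genes in 3 comparisons; green lines give the median over tested genes with a codon value in each of 4 equal bins of that share. AMOT, at 4.48 and 2.47, lies above the range drawn in the first 2 panels; LATS1 (69.5%) and LATS2 (24.4%) lie on opposite sides of 0 in ZC3H7B-OE and in ZC3H7A/B-DD.

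AMOT lies on the X chromosome at 112774503-112840815, minus strand (GRCh38, GENCODE 29). In the Flag/HA set its neighbors did not share its size of change. Within 2 Mb on each side, 9 other protein-coding genes were listed, and 3 of them (ALG13, PAK3 and CHRDL1) reached a mean of 10 normalized counts in any group. ALG13, a glycosyltransferase subunit, was abundant: 3401 ± 142 (SD, n = 3) in the control, 3722 ± 244 in ZC3H7A-OE (log2 change 0.13, adjusted p = 0.0315) and 4206 ± 52.6 in ZC3H7B-OE (0.31, adjusted p = 1.51e-05). In ZC3H7A/B-DD ALG13 was higher by 0.45 (adjusted p = 0.0149), beside 0.67 for AMOT. PAK3, a kinase, read 14.5 ± 4.68, 47.6 ± 20.4 (1.58, adjusted p = 0.00207) and 9.02 ± 3.10 (-0.63, adjusted p = 0.200), with 0.54 in ZC3H7A/B-DD (adjusted p = 0.111). CHRDL1, a secreted BMP antagonist, read at most 10.8 ± 4.76 in a Flag/HA group, and 237.5 ± 11.2 in ZC3H7A/B-DD against 6.58 ± 0.79 in Parental (4.98, adjusted p = 2.31e-06). These neighbors were picked by position.

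The other 9 genes lie elsewhere: AMOTL1 at chr11:94706431-94876753, AMOTL2 at chr3:134355874-134375479, LATS1 at chr6:149658153-149718256, LATS2 at chr13:20973032-21061547, YAP1 at chr11:102110461-102233423, WWTR1 at chr3:149517235-149736714, TEAD1 at chr11:12674591-12944483, CTGF at chr6:131948176-131951373 and CYR61 at chr1:85580761-85583962 on the same build.

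Genes with a pattern like that of AMOT were ranked by Pearson r over the 15 libraries, on log2 values set against the control group of each set. Libraries of a group share a line and a preparation, so r is a description. Of 13991 genes compared, the 5 closest were INSM1 (0.988), HIST1H2BG (0.987), HIST1H2AE (0.984), ZNF382 (0.982) and SRC (0.981). INSM1, a neuroendocrine transcription factor, read 97.5 ± 18.2 in the Flag/HA control, 466 ± 21.0 in ZC3H7A-OE, 243 ± 6.76 in ZC3H7B-OE, 925 ± 52.3 in Parental and 1207 ± 161 in ZC3H7A/B-DD. The histones HIST1H2BG and HIST1H2AE had log2 changes of 3.55 and 3.42 in ZC3H7A-OE and of 1.75 and 1.73 in ZC3H7B-OE. They belong to families of near-identical genes, so reads could be split among copies and their counts are uncertain. SRC, a tyrosine kinase, had 1.22 and 0.71, and ZNF382, a zinc finger gene, 0.76 and 0.44. Among the other 9 genes AMOTL1 came closest (r = 0.82), at rank 1078 from the top of the genes compared. LATS2 had 0.52 and TEAD1 0.26, AMOTL2, WWTR1 and LATS1 lay between -0.20 and -0.17, CTGF and CYR61 at -0.76, and YAP1 at -0.88. CTGF, CYR61 and YAP1 ranked 12554, 12565 and 13537 from the top of the 13991 genes, so many other genes had a more negative r. All these r values rest on the AMOT levels that chose it.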

How the data were processed

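Ribosome footprints of 15 HEK293 libraries, 3 in each of 5 groups, were taken from the authors' deposited table of normalized signal for 55773 gene names. Per the submitters' processing notes, the tools were cutadapt, STAR, Bowtie, DESeq2 and HTSeq and the builds hg19 and hg38, with no role given. The sources used here do not give the aligned build, the handling of multiply mapping reads, footprint lengths or the use of strand. Low values of each library were whole multiples of 1 step, and dividing by it gave whole reads for all values within 0.001 reads, so the signal was read as reads divided by a size factor. No unassigned sample columns were present.

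The main test was limma 3.58.1 (R 4.3.3, with trend) on log2(value + 1), over genes at 10 or more in at least 3 libraries of the fit, with Benjamini-Hochberg adjustment over all genes and a threshold of 0.05. Log2 changes are on that scale, which understates changes of low genes. The 9 Flag/HA libraries shared 1 fit and the other 6 another. Alternatives were other pseudocounts, filters and scalings, edgeR 4.0.16 and DESeq2 1.42.0 on the recovered reads, other samples in the fit, the replicate block, each library left out, and limma sample weights. The weights were added after Parental replicate 3 was seen to stand apart. Scripts were tested on simulated data.

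Coding lengths and codons came from GENCODE 29 and promoters from RefSeq. The labels call the Flag/HA replicates independent and say nothing of the others, so p-values there cover only spread among samples that may be technical replicates. Deviations of same-numbered libraries correlated only weakly, which cannot show whether they were paired. The main test used no pairing. Genes were named by rule: all 10 genes, up to 2 called genes per direction from each list and comparison by smallest p, and the 5 genes most like AMOT. One result of this rule is not reported here. The 10 genes and the lists were chosen with earlier results of these data known.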

Additional observations from a re-analysis of the deposited data

How the results depend on the processing

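Of 680 single-gene values of the 10 genes under alternatives, 631 counted as unchanged, 20 passed the threshold, 19 fell short of it and 10 changed sign. Unchanged means the same direction and side of the threshold where a gene was tested. AMOT had no test in the Flag/HA comparisons, and its values there are among the 631 because they stayed within 1 SD. All sign changes were in values near 0 that were not called. With a library left out, TEAD1 in ZC3H7A-OE ran from -0.00393 to 0.129, AMOTL1 between the overexpressing lines from -0.0101 to 0.0296, and in ZC3H7A/B-DD WWTR1 from -0.0046 to 0.0223 and CTGF from -0.225 to 0.0265. AMOTL1 was -0.0189 between the lines with quantile scaling, and WWTR1 in ZC3H7A/B-DD was -0.0121 with TMM scaling, -0.0120 with edgeR and -0.0255 with sample weights. The numbers of called genes moved most in ZC3H7A/B-DD against Parental. There 3 of the 10 genes became 6 with all 15 libraries in 1 fit and 7 with sample weights, and 1 to 6 with a library left out. The 21 pathway genes became 37, 46 and 9 to 35, and the 4182 called among all genes became 6223, 9003 and 1895 to 5560. Between the overexpressing lines, leaving out a library gave 2 to 4 of the 9 genes, against 4 with all. The causes were not tested. In ZC3H7A-OE and ZC3H7B-OE against the control the counts stayed at 4 to 6 and at 8 of 9. AMOT kept its log2 changes of 4.48, 2.47 and 2.01 within 1 SD under all alternatives run.

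Replicate numbers were shared across groups. Deviations from the group means correlated between same-numbered libraries at -0.057 to 0.092 in the Flag/HA set. In the second set they correlated at -0.133, 0.033 and -0.131. Libraries with unlike numbers reached -0.101 in the first set and 0.166 in the second. With group means of 3 libraries, these values cannot show whether same-numbered libraries shared a day or a preparation. With the replicate block the counts of the 9 genes were 5, 8 and 6 and that of the 10 genes 3, and the pathway counts were 53, 49, 32 and 16. YAP1 and CYR61 then passed between the overexpressing lines (adjusted p = 0.0317 and 0.0472). Depth limits CTGF and LATS2 most, at 59 and 80 reads in their lowest libraries.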
